A study of Rattus norvegicus with 2 samples.

Results

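The potassium channel genes described here are those whose symbol starts with Kcn, found as all non-control probes with such a gene name on a rat expression array. The rule gave 129 probes in 138 spots for 92 genes, of 17573 genes that the array's probes could be matched to. Members were taken by name and not by any measured value, though the choice was made with earlier results of these data known. RNA came from tissue labelled as the paraventricular nucleus of the hypothalamus of 12-week-old male Sprague Dawley rats. The dexamethasone array held offspring whose mothers, in the third trimester, had received the synthetic glucocorticoid dexamethasone at 200 µg/kg. The control array held offspring of mothers given vehicle. There was 1 array per group, and the number of animals behind an array was not given in the sources used here.

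Potassium channels let potassium leave or enter a cell, and so set its resting potential, the shape of its action potentials and the pace at which it fires. Voltage-gated alpha subunits assemble as tetramers, silent modifier subunits join such tetramers without forming a working channel alone, and auxiliary subunits bind from inside the cell or within the membrane. In the paraventricular nucleus, A-type, M-type and calcium-activated potassium currents are known to restrain the firing of neurons that secrete vasopressin and oxytocin and of those that drive sympathetic outflow.

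The probes behind the widest differences are shown because each measured only its own stretch of a transcript. They are 60 bases long and run 5′ to 3′. Positions are those of the rn4 assembly in the scanner files, and no annotation of that build was used, so exon or UTR is not stated. The Kcnv1 probe lies at chr7:81012914-81012973 on the minus strand, the Kcnj4 probe at chr7:117602501-117602560 on the minus strand, and the Kcnt1 probe at chr3:4087970-4088029 on the plus strand. The Kcng1 probes lie at chr3:159427825-159427884 and chr3:159429234-159429293 on the minus strand. Those of Kcnh3 lie at chr7:138002471-138002530 and chr7:137999604-137999663 on the plus strand. For Kcnv1, both Kcnh3 probes and the brighter Kcng1 probe a stretch of 30 bases is shown, the last 30 for the brighter Kcnh3 probe and the first 30 for the others.
Kcnv1: gctatggctatctgtatactgattatgatt
Kcnh3, brighter probe: tcatgttttttatattaaaaaacataaaaa
Kcnh3, dimmer probe: ttttgaagcctgaggctggtccttctgctc
Kcng1, brighter probe: ggggacaccaacaagccggtcatctctgct
Kcng1, dimmer probe: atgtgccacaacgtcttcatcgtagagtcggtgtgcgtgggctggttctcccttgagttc
Kcnj4: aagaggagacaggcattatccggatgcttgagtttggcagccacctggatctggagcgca
Kcnt1: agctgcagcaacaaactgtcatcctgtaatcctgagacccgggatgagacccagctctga
No run longer than 12 bases was shared by probes of different Kcn genes.

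Signals below are processed intensities, the scanner software's background-subtracted brightness in arbitrary units. Differences are dexamethasone minus control in log2, after each array's 75th percentile was subtracted. Each gene is represented by its brightest probe among those well above background on both arrays. A 2-fold difference is a rule of size and not a test, since 1 array per group gives no spread between animals and no p-value. The software's own error model gave an SD of the log2 difference with a median of 0.20 and a range of 0.20 to 0.42 over the measured members. It covers spot and scanner error alone. The arrays were 2 positions of 1 slide, and position cannot be told apart from group.

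The arrays also differed in markers of brain regions and cell types, whose lists were chosen with earlier results of these data known. Of 10 markers of cortical and hippocampal neurons, 9 were measured and all 9 were at least 2-fold higher on the dexamethasone array, with a median difference of 4.41 and a summed signal of 67881 on the dexamethasone array against 2472 on the control array. Of 8 striatal markers, 7 were measured, 3 were at least 2-fold higher and the median was 0.68, with a summed signal of 13316 against 8124. All 8 thalamic markers were lower on the dexamethasone array, 3 of them by 2-fold or more, with a median of -0.93 and a summed signal of 87296 against 154400. Of 8 symbols for the paraventricular nucleus, 6 were measured, 2 above and 4 below 0, with a median of -0.28. Their summed signal was 3121 on the dexamethasone array and 6074 on the control array. Avp, which encodes vasopressin, differed by -1.91, Oxt, which encodes oxytocin, by -1.38, and Crh, which encodes corticotropin-releasing hormone, by 1.39. Trh was at -0.24 and Pou3f2 at 0.24. Sim1, a transcription factor that defines the nucleus, was dim at 12.0 on the dexamethasone array and 14.1 on the control array, and Otp was not measured on both. No measured marker of astrocytes, oligodendrocytes, microglia, vessels or choroid plexus reached 2-fold, and those medians lay between -0.14 and 0.27. In such bulk tissue, fewer cells of a type and less RNA per cell cannot be told apart. The part that tissue composition has in each difference below was not tested.

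Of the 92 Kcn genes, 83 were measured on both arrays, 1 on the dexamethasone array alone and 8 on neither. Of the 83, 10 were at least 2-fold higher on the dexamethasone array (12.0%), as were 3.37% of 14176 genes. A single Kcn gene was at least 2-fold lower, as were 2.38% of all genes, and the other 72 lay within 2-fold. The family as a whole was not displaced: 39 genes were above 0 and 44 below, and the median was -0.02 among Kcn genes and 0.01 over all genes. It was spread more widely, with an SD across genes of 1.07 against 0.54 over all genes. Among genes with a mean log2 signal of 6 or more, 9 of 64 Kcn genes were at least 2-fold higher, against 3.06% of all such genes, and 1 was at least 2-fold lower, against 1.81%. At a 1.5-fold limit, 11 of the 83 Kcn genes were higher and 15 lower, against 7.29% and 7.53% of all genes.

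**Figure D1:**
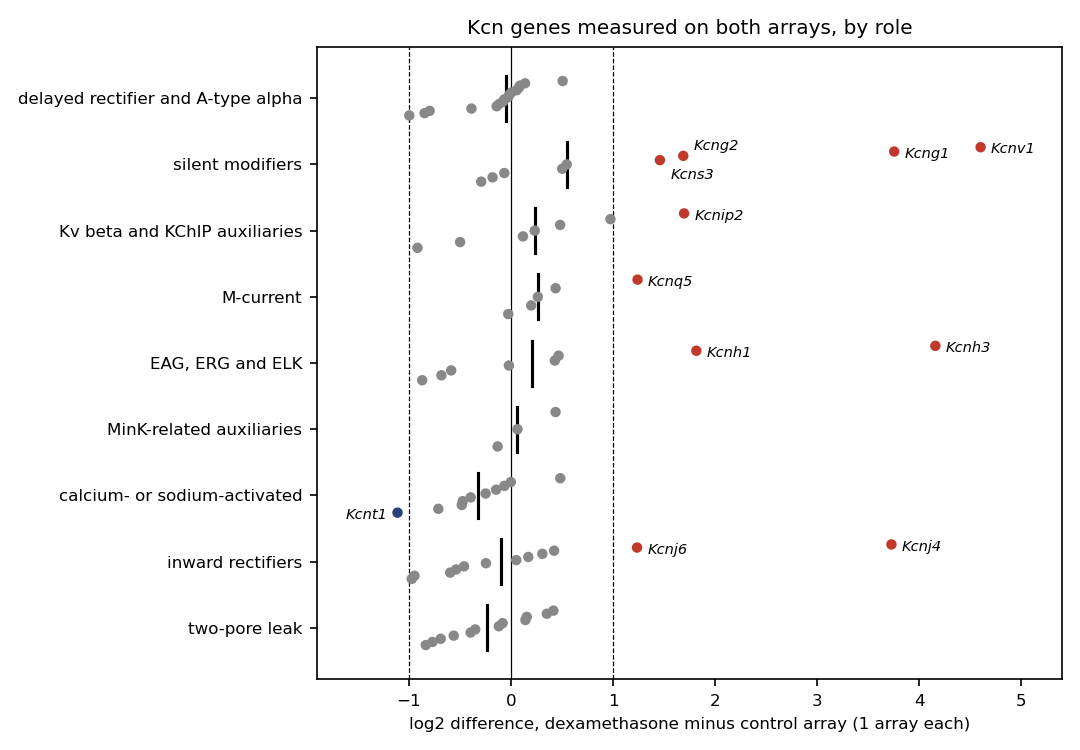
Log2 difference, dexamethasone minus control array, of the Kcn genes measured on both arrays, by role, 1 point per gene; bars mark class medians, dashed lines a 2-fold difference. The 10 genes beyond 2-fold on the higher side come from 5 classes, 4 of them silent modifiers, and Kcnt1 alone lies beyond 2-fold on the lower side.

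4 genes were at least 8-fold higher on the dexamethasone array, a size reached by 0.324% of all genes. Kcnv1, a silent modifier that assembles with Kcnb subunits, gave 1191 on the dexamethasone array and 46.5 on the control array, a 24.3-fold difference (log2 4.60) that ranked 11 among the 14176 genes. Kcnh3, an ELK channel of forebrain neurons, gave 5937 on the dexamethasone array and 315 on the control array (17.9-fold, log2 4.16, rank 16). Its other probe was also higher, by log2 3.01, at 76.2 against 9.0. Kcng1, another silent modifier, gave 760 on the dexamethasone array and 53.4 on the control array (13.5-fold, log2 3.76). Its other probe differed by only 0.27, at 40.6 against 31.9, and the mean of both was 2.01. Kcnj4, a strong inward rectifier of the Kir2 group, gave 279 on the dexamethasone array and 19.9 on the control array (13.3-fold, log2 3.73). With normexp background correction Kcng1 came to 2.69 and Kcnj4 to 2.03, so that Kcnv1 and Kcnh3 alone of the 4 stayed at least 8-fold higher. These 4 genes had clear signal on the dexamethasone array and, except for Kcnh3, were dim on the control array.

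**Figure D2:**
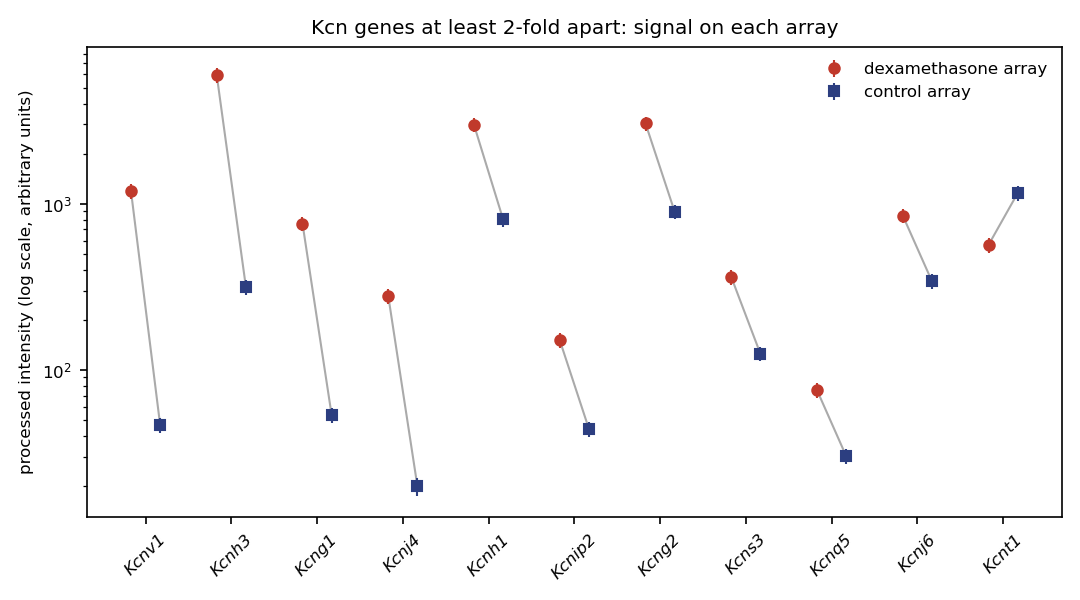
Processed intensity (log scale, arbitrary units) of the 11 Kcn genes at least 2-fold apart, 1 dexamethasone and 1 control array each, joined per gene; bars are the scanner software's error of a spot. 10 genes lie higher on the dexamethasone array and Kcnt1 lies lower, 564 against 1157.

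The silent modifiers (Kcnf, Kcng, Kcns and Kcnv) held the most genes that were higher. Of 10 genes 9 were measured on both arrays, 6 were above 0, 4 were at least 2-fold higher and none was 2-fold lower. Their median was 0.55, which came to 0.17 with normexp correction and to 1.46 among bright genes. Beside Kcnv1 and Kcng1, Kcng2 gave 3043 on the dexamethasone array and 895 on the control array (3.22-fold, log2 1.69). Kcns3, which modifies Kcnb channels, gave 362 on the dexamethasone array and 125 on the control array (2.75-fold, log2 1.46). Kcng3 was well above background on the dexamethasone array alone, at 20.6 against 6.70 on the control array. The ratio of these readings was 2.91-fold, with an error-model SD of 0.38 (log2). As the control reading was not well above background, that size is uncertain. Kcns1 at 0.55 and Kcns2 at 0.50 lay within 2-fold, and Kcnf1 at -0.06, Kcng4 at -0.18 and Kcnv2 at -0.29 were slightly lower. So a high value was not shared by all members: within Kcnv, Kcnv1 was 24.3-fold higher and Kcnv2 lower, at 89.2 against 104. Without the silent modifiers, 6 of the other 74 Kcn genes were at least 2-fold higher (8.11%, against 3.37% of all genes). Their median was -0.03.

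Kcnb2, a delayed rectifier subunit that such modifiers can join, gave 679 on the dexamethasone array and 652 on the control array (-0.02). None of the 16 measured delayed rectifier and A-type alpha genes (Kcna, Kcnb, Kcnc and Kcnd) was 2-fold apart, and their median was -0.05 with 6 above 0. Kcna1, a low-threshold axonal channel, was the highest at 14692 on the dexamethasone array against 9811 on the control array (0.51), and Kcna2 was at -0.14.

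Kcnc2, a fast channel that lets some interneurons and thalamic relay neurons fire at high rates, lay just short of 2-fold lower. Its brightest probe gave 7512 on the dexamethasone array and 14213 on the control array (1.99-fold lower), and its 3 probes ran from -1.01 to -0.84. Kcnd3, an A-type channel, was lower on all 4 of its probes, from -0.80 to -0.38, with 537 on the dexamethasone array and 886 on the control array at the brightest. The related A-type channel Kcnd2 did not move with it, at 9012 on the dexamethasone array and 8228 on the control array (0.06). A second Kcnd2 probe was spotted 10 times and averaged 4206 ± 199 on the dexamethasone array and 4104 ± 143 on the control array (SD over 10 spots of 1 array), a difference of -0.04 ± 0.03. The sign of Kcnd2 is therefore not settled at this precision. Kcnc1, a fast channel like Kcnc2, was at -0.39.

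Among the Kv beta and KChIP auxiliaries, 7 of 7 were measured, 5 were above 0 and 1 was at least 2-fold higher, with a median of 0.23. Kcnip2, a calcium-binding partner of the Kcnd channels, gave 151 on the dexamethasone array and 44.1 on the control array (3.24-fold, log2 1.70). With normexp background correction it came to 0.99 and fell short of 2-fold. Kcnab2, a Kv beta subunit, lay just within the limit at 598 against 289 (1.97-fold, log2 0.98). Kcnip1, another Kcnd partner, went the other way at 365 on the dexamethasone array and 654 on the control array (-0.92), and its 2 probes gave -0.96 and -0.92. The auxiliaries of one channel group thus lay at opposite sides of 0.

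All 5 genes of the Kcnq family, which holds the M-current subunits, were measured and 4 were above 0, with a median of 0.26. Kcnq5 was the only one 2-fold apart, at 75.4 on the dexamethasone array and 30.3 on the control array (2.36-fold, log2 1.24). It was dim, and normexp correction brought it to 0.61. Kcnq3, a subunit of the neuronal M-channel, gave 4683 on the dexamethasone array and 3281 on the control array (0.44), and its 2 probes were nearly alike at 0.44 and 0.46.

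The EAG, ERG and ELK genes (Kcnh) lay on both sides of 0. All 8 were measured, 4 were above 0, 2 were at least 2-fold higher and the median was 0.21. Beside Kcnh3, Kcnh1, an EAG channel of brain, gave 2984 on the dexamethasone array and 804 on the control array (3.52-fold, log2 1.82). The ELK gene Kcnh4 was at 0.47 and the ELK gene Kcnh8 at -0.68. Of the ERG genes, which carry a slowly deactivating current, Kcnh2 gave 2080 on the dexamethasone array and 2962 on the control array (-0.59), Kcnh6 gave 330 and 571 (-0.87), and Kcnh7 was at 0.43. No Kcnh gene was 2-fold lower.

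Of 5 MinK-related auxiliaries (Kcne), 3 were measured on both arrays and none was 2-fold apart. Kcne2, a subunit abundant in choroid plexus, gave 3038 on the dexamethasone array and 3155 on the control array (-0.13), and Kcne5 gave 90.4 and 63.3 (0.44). On neither array were Kcne1 and Kcne3 well above background, nor were Kcna10, Kcnj1, Kcnj2, Kcnj15, Kcnk18 and Kcnmb1.

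Of 10 measured calcium- or sodium-activated genes, 9 were below 0, as were 6904 of all 14176 genes, but 9 lay within 2-fold and 1 was at least 2-fold lower. Their median was -0.32, and 1 of the 9, Kcnn2, had either sign under other processing. Some others of the 9 also lay nearer to 0 than their error-model SD. Kcnt1, a sodium-activated channel, was the single Kcn gene at least 2-fold lower, with 564 on the dexamethasone array and 1157 on the control array (log2 -1.11). Kcnma1, the large-conductance calcium-activated channel, gave 776 on the dexamethasone array and 1022 on the control array (-0.47), and its 3 probes ran from -0.79 to -0.34. Its beta subunits Kcnmb2 at -0.71, Kcnmb3 at -0.48 and Kcnmb4 at -0.25 were below 0 too. Kcnmb3 was dim, at 9.08 on the dexamethasone array and 12.0 on the control array, with an error-model SD of 0.38. Kcnmb4 gave 16664 on the dexamethasone array against 18772 on the control array, with an error-model SD of 0.20. Of the small-conductance channels, which carry an afterhyperpolarization that follows spikes, Kcnn3 gave 527 on the dexamethasone array and 657 on the control array (-0.39). Kcnn2 was level at 0.00. Kcnn1 was the one gene above 0, at 74.9 against 50.8 (0.48), a value that came to 0.18 with normexp correction. Apart from Kcnt1, all of these lay within 2-fold.

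Of 15 inward rectifiers (Kcnj), 12 were measured, 6 above and 6 below 0, with 2 at least 2-fold higher and a median of -0.10. That median had either sign under the alternatives, between -0.35 and 0.12. Beside Kcnj4, Kcnj6, a G-protein-gated subunit opened by inhibitory transmitters, gave 849 on the dexamethasone array and 342 on the control array (2.36-fold, log2 1.24). Its partner subunits took both sides: Kcnj3 gave 6004 on the dexamethasone array and 4249 on the control array (0.42), Kcnj5 gave 290 and 326 (-0.24), and Kcnj9 gave 861 and 1234 (-0.60). Kcnj16 at 979 against 1823 (-0.97) and Kcnj12 at 498 against 909 (-0.95) lay just within 2-fold lower. Kcnj12 belongs to the Kir2 group, as does Kcnj4, so members of 1 group lay far apart. The pore subunits of the ATP-sensitive channel lay within 2-fold: Kcnj8, the vascular one, gave 802 on the dexamethasone array and 1047 on the control array (-0.46), and Kcnj11, the neuronal one, at 0.17. Kcnj10, the main inward rectifier of astrocytes, was at 0.05 and dim at 53.4 against 48.9, and its sign changed with normexp correction (-0.07). Kcnj13, an inward rectifier of epithelia such as the choroid plexus, was at 0.31.

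None of the 12 measured two-pore leak genes (Kcnk) of 13 was 2-fold apart, and 4 were above 0 with a median of -0.23. The lowest was Kcnk4, a mechanically gated channel, at 309 on the dexamethasone array and 522 on the control array (-0.83). Kcnk3, an acid-sensitive leak channel, gave 714 and 1091 (-0.69), and its relative Kcnk9 was dim at 18.5 and 15.9 (0.14, with the other sign under normexp correction). Kcnk2, a stretch- and lipid-sensitive leak channel, gave 3225 on the dexamethasone array and 3237 on the control array (-0.08). The highest was Kcnk6 at 169 against 120 (0.42). Kcnrg, whose product regulates channel assembly and is no channel itself, was dim, at 0.26, or -0.04 with normexp correction.

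**Figure D3:**
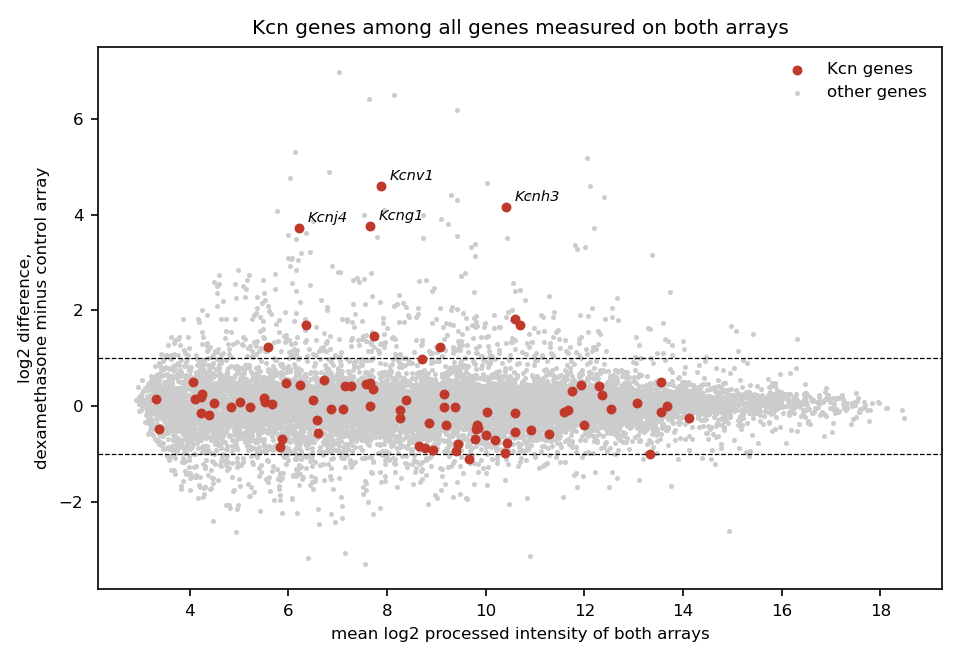
Log2 difference, dexamethasone minus control array, against the mean log2 processed intensity of both arrays for 14176 genes (grey) and the 83 measured Kcn genes (red); dashed lines mark 2-fold. Kcnv1, Kcnh3, Kcng1 and Kcnj4 stand at 3.73 to 4.60, and most other Kcn genes lie within 2-fold at every brightness.

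Several probes tell how far a gene's value depends on the stretch measured. Of 25 genes with several measured probes, 20 had all probes on 1 side of 0 and 5, Kcnd2, Kcnk2 and Kcnk13 among them, did not. In Kcng1 the probes lay far apart. The probe behind the 13.5-fold difference was bright on the dexamethasone array, while the other, printed whole above, was dim on both arrays. Kcng1 is accordingly 2-fold higher on 1 of its 2 probes. Kcnh3 was at least 8-fold higher on both of its probes. Its dimmer probe lay at that limit (log2 3.01, error-model SD 0.30) and read only 9.0 on the control array.

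Kcnk13, a two-pore channel of microglia in mouse brain, had probes on both sides of 0, at -0.77 (1081 on the dexamethasone array, 1748 on the control array) and 0.31 (126 and 96.2). No direction is therefore given for Kcnk13. Kcnk2 was at -0.08 on its brightest probe and at -0.64 and 0.11 on the dimmer ones.

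**Figure D4:**
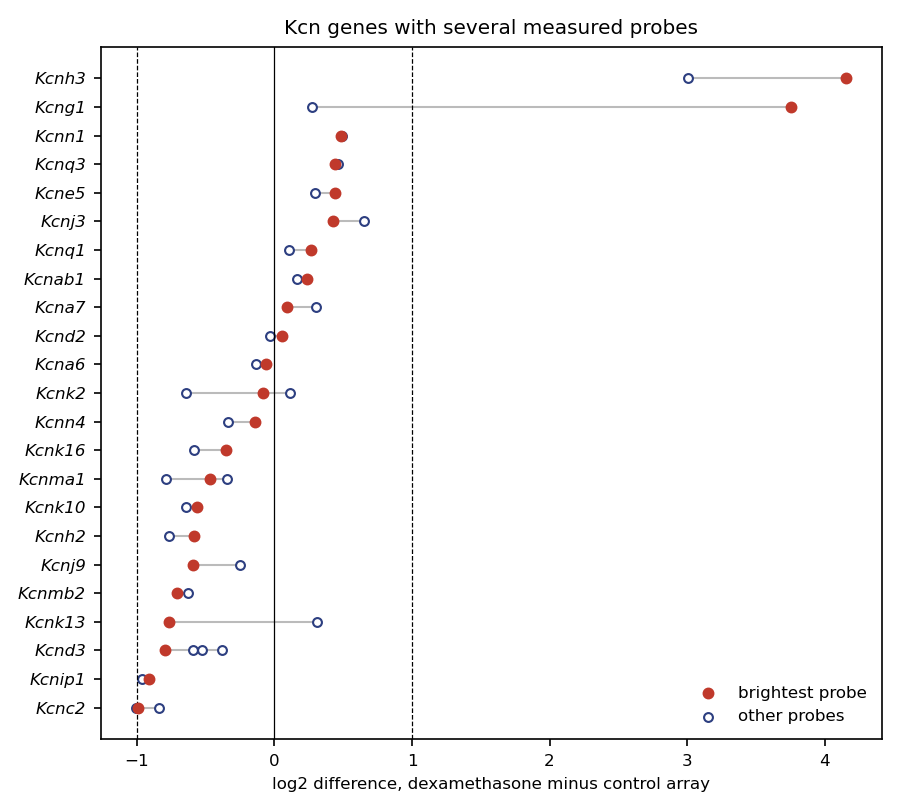
Log2 difference, dexamethasone minus control array, of each measured probe of 23 Kcn genes with several; filled points are the brightest probe, open points the others, dashed lines 2-fold. The 2 probes of Kcng1 stand far apart, at 3.76 and 0.27, and Kcnh3 lies beyond 2-fold on both.

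For the 10 higher genes, values changed little with the scaling of the arrays, and those of dim genes changed more with the background correction. Under quantile or cyclic loess normalization the 10 higher genes stayed at least 2-fold higher. With normexp correction, Kcnv1 came to 3.43, Kcnh3 to 3.93, Kcng1 to 2.69 and Kcnj4 to 2.03, all still more than 4-fold. Kcnip2 and Kcnq5 then lay under 2-fold, so 8 of 83 Kcn genes were at least 2-fold higher, as were 2% of all genes. The count of 2-fold lower Kcn genes was then 2 (Kcnt1 and Kcnc2), against 0.917% of all genes.

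**Figure D5:**
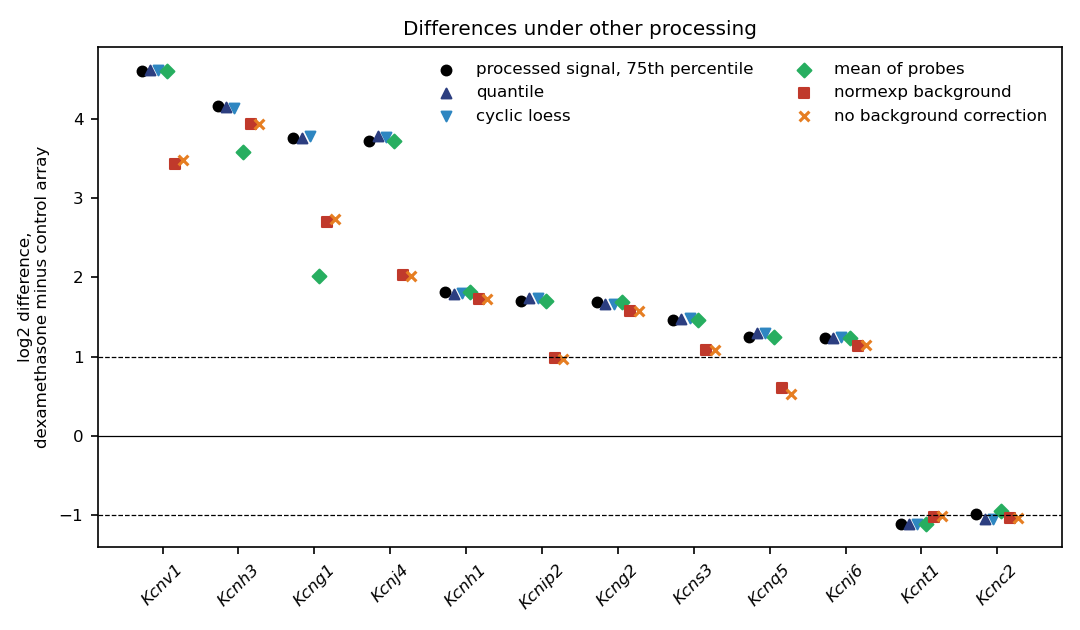
Log2 difference, dexamethasone minus control array, of the 11 Kcn genes at least 2-fold apart and of Kcnc2 under the processing used and 5 alternatives; dashed lines mark 2-fold. Kcnip2 and Kcnq5 drop below 2-fold without the software's background subtraction, and Kcnc2 lies at the limit.

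Genes that work with the channels but carry no Kcn symbol lay mostly within 2-fold (26 of 29 measured), as did 13360 of all 14176 genes. Of 32 such genes, 29 were measured, 15 were above 0 and the median was 0.07. At least 2-fold higher were 2 (6.90%), against 3.37% of all genes, and 1 was at least 2-fold lower (3.45%), against 2.38%. Akap5, which anchors kinases and phosphatase at M-channels and synapses, gave 1909 on the dexamethasone array and 274 on the control array (6.61-fold, log2 2.72). Lgi1, a secreted protein that acts on axonal Kcna channels, gave 1018 and 412 (1.23). Lrrc55, an auxiliary of Kcnma1, was lower at 13.0 against 28.6 (-1.22), near the dim end of the range. The sulfonylurea receptors Abcc8 (-0.30) and Abcc9 (-0.28), and the Kcnd partners Dpp6 (-0.15) and Dpp10 (-0.22), lay close to 0. The GABA-B receptor genes, whose receptors open G-protein-gated channels, were lower within 2-fold, Gabbr1 at 15068 against 23132 (-0.69) and Gabbr2 at -0.52.

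Promoter sequences of RefSeq on the GRCr8 assembly were matched to 62 of the 92 Kcn genes (68 promoters), and the 250 bases before each gene's start were read. Kcnv1, Kcnh3 and Kcng1 had no entry. Those of Kcnj4 at chr7:112954548-112954797 (minus strand), Kcnh1 at chr13:106252966-106253215 (plus strand) and Kcnip2 at chr1:254613899-254614148 (minus strand) are shown because these are the 3 genes with the largest differences that had one. Capitals mark CG pairs.
Kcnj4: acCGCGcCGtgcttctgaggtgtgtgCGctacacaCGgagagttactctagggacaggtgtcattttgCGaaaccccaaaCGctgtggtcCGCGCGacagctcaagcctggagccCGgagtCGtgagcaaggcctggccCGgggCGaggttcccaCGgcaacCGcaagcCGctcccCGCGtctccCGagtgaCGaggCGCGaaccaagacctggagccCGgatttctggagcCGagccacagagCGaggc
Kcnh1: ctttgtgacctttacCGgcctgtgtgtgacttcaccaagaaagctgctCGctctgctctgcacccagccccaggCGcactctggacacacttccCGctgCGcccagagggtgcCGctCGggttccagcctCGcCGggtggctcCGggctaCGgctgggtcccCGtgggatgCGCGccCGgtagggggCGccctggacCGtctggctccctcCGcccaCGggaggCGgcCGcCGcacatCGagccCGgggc
Kcnip2: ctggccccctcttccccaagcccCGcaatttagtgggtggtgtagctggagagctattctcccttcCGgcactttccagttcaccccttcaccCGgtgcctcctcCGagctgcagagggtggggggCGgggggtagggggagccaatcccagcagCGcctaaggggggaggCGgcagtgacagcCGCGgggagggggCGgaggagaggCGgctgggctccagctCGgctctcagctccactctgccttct
They hold 26, 24 and 12 CG pairs. The 8 promoters of 7 genes at least 2-fold higher held 11 to 29 CG pairs with a median of 22, the 60 promoters of the other Kcn genes a median of 9, and all 33469 promoters a median of 5. The half-site AGAACA, the short motif of the glucocorticoid receptor, was searched on both strands (as TGTTCT on the other). It stood in 0 of the 8 promoters, in 11 of the other 60 and in 17.5% of all. The other 60 include promoters of genes not measured on both arrays and of the lower gene Kcnt1. Median GC content also differed, at 68.6% in the 8, 59.6% in the other 60 and 51.2% over all promoters. Its part in these counts was not tested. The cAMP response element TGACGTCA, which reads the same on both strands, was in 0 of the 68 and in 1.59% of all. These are counts of letters in a short window and say nothing of factor binding.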

How the data were processed

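Total RNA of labelled paraventricular nucleus was amplified, labelled with Cy3 and hybridised to 1-colour rat arrays, per the labels' protocols. The deposited scanner files hold spot intensity. The version of Feature Extraction was 10.7.1.1 per the file headers and 9.5.1.1 per the submitters' processing notes. Probe positions are on rn4. The processed intensity, per the file headers, is background-subtracted. The deposited value table holds intensity on a linear scale whose 2 columns share nearly 1 distribution. Its normalization was not given in the sources used here.

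Spots of a probe were averaged as log2 processed intensity, leaving out outlier spots (2 member spots on each array), and the 75th percentile of each array was subtracted (1480 dexamethasone, 1404 control, as signal). In all, 78.2% of 30367 probes were well above background on the dexamethasone array and 79.5% on the control array, and no member spot was saturated. Over repeated spots of a probe, the log2 difference between the arrays had a median SD of 0.041 (1315 probes). The number of arrays limits the precision. Names were brought up to date with RefSeq's GRCr8 genes: 117 member probes matched by accession, 11 by current and 1 by older symbol. Probes that matched no gene were left out of the counts over all genes.

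Members and lists were chosen with earlier results of these data known. Named genes were all Kcn genes 2-fold apart, and any with such a ratio that was well above background on 1 array alone. The member farthest each way in each role class and channels known in the nucleus were named too. Some Kcn genes and their sequences are not reported here. Other Kcn genes were named after their values were seen, to complete a class, a count or a probe comparison. The 11 alternatives covered scaling, background correction, dim probes, choice of probe, outlier spots, the deposited value table and a 1.5-fold limit. Python 3.11.15, numpy 2.4.6, pandas 2.3.3, R 4.3.3 and limma 3.58.1 were used, and the counting was tested on simulated data.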

Additional observations from a re-analysis of the deposited data

How the results depend on the processing

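The count of Kcn genes at least 2-fold higher on the dexamethasone array was 10 with median, quantile or cyclic loess scaling, with the mean of probes, with outlier spots kept and in the deposited value table. It was 8 with normexp or no background correction, 9 among bright genes and 14 with no filter on dim probes (92 genes). The count at least 2-fold lower was 1 or 2. It was 2 under quantile and cyclic loess normalization, normexp correction, no background correction and the deposited value table. There Kcnc2 joined Kcnt1 (Kcnc2 reached -1.06). Of all genes, 2.35% were 2-fold lower with quantile, cyclic loess or the deposited table. That share was 0.917% with normexp, 0.938% with no background correction and 4.17% with no filter on dim probes. At 1.5-fold, 11 of 83 Kcn genes were higher, as were 7.29% of all genes. Of the same 83, 15 were lower, as were 7.53% of all genes. The family's median was 0.054 with no filter on dim probes and -0.065 among bright genes, where other genes were counted. For the other settings the cause was not tested. No paired analysis was possible because each group has 1 array. Of the values of named genes under alternatives, 21 moved by more than the error model's SD of the difference. Dim genes are the least secure: Kcnj4 came to 2.03 with normexp correction, Kcnq5 to 0.53 and Kcnip2 to 0.97 with no background correction. No spread between animals can be had from these arrays, and tissue sampling and treatment cannot be told apart.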

Other observations

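Some probes for potassium channels carry other names in the files and stood outside the rule. Kcnk7, a two-pore channel gene under an older locus name, had a probe at 112 on the dexamethasone array and 93.4 on the control array (0.19) and a dimmer one at 33.4 and 26.5 (0.26). A second probe for Kcnip2, under the name Kchip2, was not well above background on either array, so it gave no second reading of that gene's higher value. A transcript that the array design describes as KCNA3 gave 240 on the dexamethasone array and 249 on the control array (-0.12).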
